A study of Mus musculus with 6 samples.

Results

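Gm-numbered genes are mouse genes listed under a provisional number, given when a gene model was predicted before its product was studied. Those with clear expression were chosen by their symbol and their mean, as the rows of the authors' deposited table whose symbol is Gm followed by digits and whose mean normalized count over all 6 libraries was at least 50. The rule kept 178 of the 1540 Gm-numbered genes in the table, which holds 25239 genes in all. The 178 genes are called the Gm members below. Their means ran between 50.4 and 5136, with a median of 159, and every one of them had a p-value. They were set beside the 9383 other genes with means in the same range. The minimum and the range rest on the mean count, so the means themselves are a description, not a result. Just above the minimum lay Gm10389 (50.4), Gm3143 (50.5) and Gm10857 (50.9), with log2 fold changes of 0.68, 0.31 and 1.12, of which only that of Gm10857 passed the test. Just below it lay Gm16023 (49.8), Gm4971 (49.1) and Gm43915 (48.7), with log2 fold changes of 0.17, 2.68 and 0.06, of which only that of Gm4971 passed.

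The cells were E14 mouse embryonic stem cells, a male line, grown in N2B27 with the cytokine LIF and the 2i inhibitors, which hold them in a naive pluripotent state. The compared groups were 3 libraries of cells transfected with Ehmt2 siRNA and 3 libraries of cells transfected with control siRNA. Cells of both groups received 2 μl of a 40 μM siRNA stock with Lipofectamine RNAiMAX and were collected 3 days later, and polyA-enriched RNA was sequenced as read pairs. No label ties the libraries to separate cultures, so the p-values measure the spread between these libraries, which may be technical. The table gives 1 mean, 1 log2 fold change and 1 p-value per gene and no value per library, so no SD, no depth per library and no overlap between groups could be given. The fold change is Ehmt2 siRNA over control siRNA, a direction read from the negative value of Ehmt2, since the header does not name the numerator.

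Ehmt2 encodes G9a, a lysine methyltransferase that, with its partner GLP, places mono- and dimethylation on histone H3 lysine 9, a mark of silent chromatin. In mouse embryonic stem cells G9a is known to hold down germline genes, some retrotransposons and genes of the early cleavage embryo. Many Gm-numbered genes lie in young, duplicated gene families, among them KRAB zinc finger genes, families specific to the germline and copies of retrotransposed genes.

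Ehmt2 itself fell, with a log2 fold change of -1.53, which is 34.7% of the control siRNA level (adjusted p = 2.87e-33, the authors' DESeq2 p with Benjamini-Hochberg adjustment over all 20461 genes with a p-value). Because the sign of the table was read from this gene, its fall is no separate check of the labels. The embryonic stem cell markers were high, with means between 19551 and 122043 for the 9 listed genes, and none of the 9 passed the test (median log2 fold change -0.09). Of 5 fibroblast markers 1 rose, of 4 primitive endoderm markers 1 rose and 1 fell, and of 4 trophectoderm markers 1 rose. The fibroblast markers had means between 4.78 and 110. In bulk RNA a change in the number of cells of a type and a change in RNA per cell cannot be told apart.

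Of the 178 Gm members, 30 rose in Ehmt2 siRNA cells, 1 fell and 147 did not pass an adjusted p of 0.05. The risers were 16.9% of the members, against 7.31% of the other genes of the range, of which 686 of 9383 rose. The single gene that fell was 0.562% of the members, against 8.49% of the other genes of the range, of which 797 fell. Over all 20461 tested genes 5.45% rose and 4.82% fell. Over the members the log2 fold change had a median of 0.12, and over the other genes of the range one of -0.01. A value above 0 was found in 125 members, or 70.2%, against 47% of the other genes. At an unadjusted p below 0.05, 51 members were higher and 5 lower. These are counts and medians from 1 deposited comparison, and no test was made of the members as a set.

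**Figure D1:**
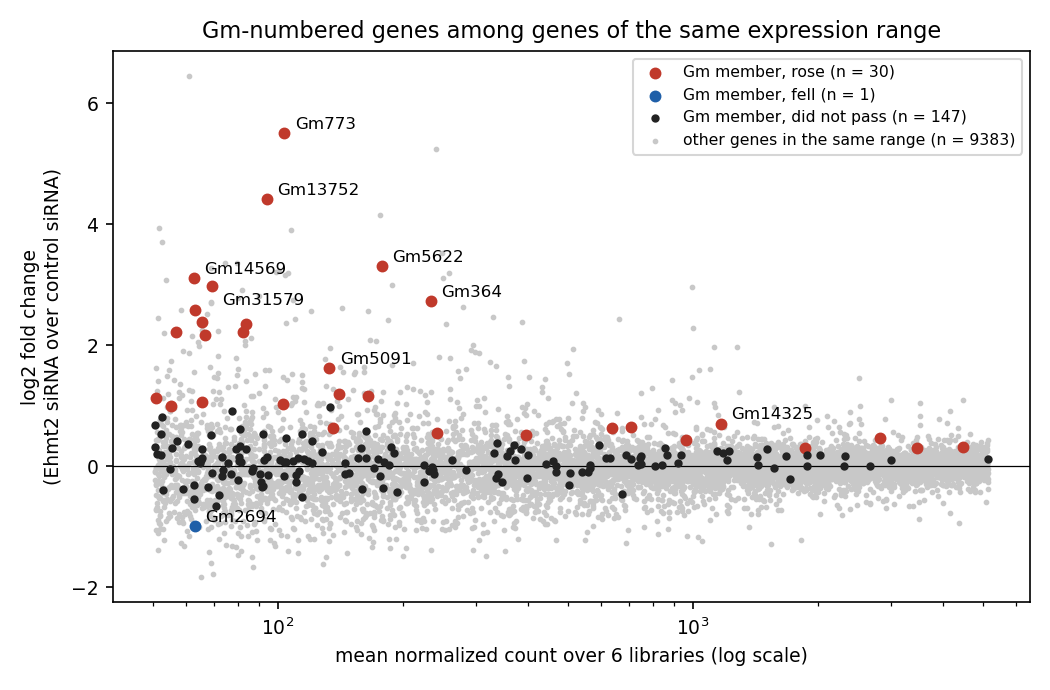
Mean normalized count over the 6 libraries (x axis, log scale) and log2 fold change of Ehmt2 siRNA over control siRNA (y axis) for the 178 Gm members and the 9383 other genes of the same range (grey). The 30 members that rose (red) lie above 0, with the highest values at means of at most 233, and the 1 that fell (blue) is Gm2694.

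The plot of mean against fold change shows strong rises at low means and weaker ones at higher means. Of the 30 members that rose, 18 had a log2 fold change of at least 1, and these had means between 50.9 and 233. Another 11 had values under 0.75, and their means lay between 136 and 4467. Gm9057, a transcribed pseudogene on chromosome 5, lay between them with a value just under 1. The members' median standard error, implied by fold change and p, was 0.30 at means of 50 to 100 and 0.09 at 1000 and above. A small rise was thus less able to pass at a low mean, so the lack of weak risers there is partly set by the test. The 18 strong risers were 10.1% of the members, against 1.96% of the other genes of the range (184 genes). The minimum was set on the mean over both groups, so a gene that is low in control siRNA cells could pass it through the Ehmt2 siRNA libraries alone. The levels implied by mean and fold change were below 50 in control siRNA cells for 14 of the 30 member risers (46.7%) and for 81 of the 686 other risers (11.8%). They include 13 of the 18 strong risers, which met the minimum only through their level in Ehmt2 siRNA cells, so the count of strong risers is a description. The other 16 member risers had implied levels of at least 50 in both groups.

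The share of members that rose was 19.7% of 61 at means of 50 to 100, 16.7% of 42 at 100 to 200, 11.1% of 27 at 200 to 500, 12% of 25 at 500 to 1000 and 21.7% of 23 at 1000 and above. The shares of other genes in the same bins were 9.3%, 9.44%, 10.1%, 7.41% and 5.78%. The members' share was thus above that of the other genes in each bin, by the least at 200 to 500, where 3 of 27 members rose. At 50 to 100 every member that rose had an implied control siRNA level below 50. Those risers met the minimum only through Ehmt2 siRNA cells, so the share of that bin is a description. At 100 to 200 the same held for Gm773 and Gm5622, with implied control siRNA levels of 4.47 and 32.7. The share of the bin of 100 to 200 is likewise a description. The single member that fell lay at 50 to 100. In the 4 higher bins no member fell, where between 6.33% and 12.8% of the other genes fell. At an unadjusted p below 0.05 those 4 bins held 2, 0, 1 and 0 lower members, in order of mean. The members' medians by bin were 0.14, 0.10, 0.04, 0.11 and 0.17, and those of the other genes were -0.06, -0.09, -0.06, -0.04 and -0.00.

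**Figure D2:**
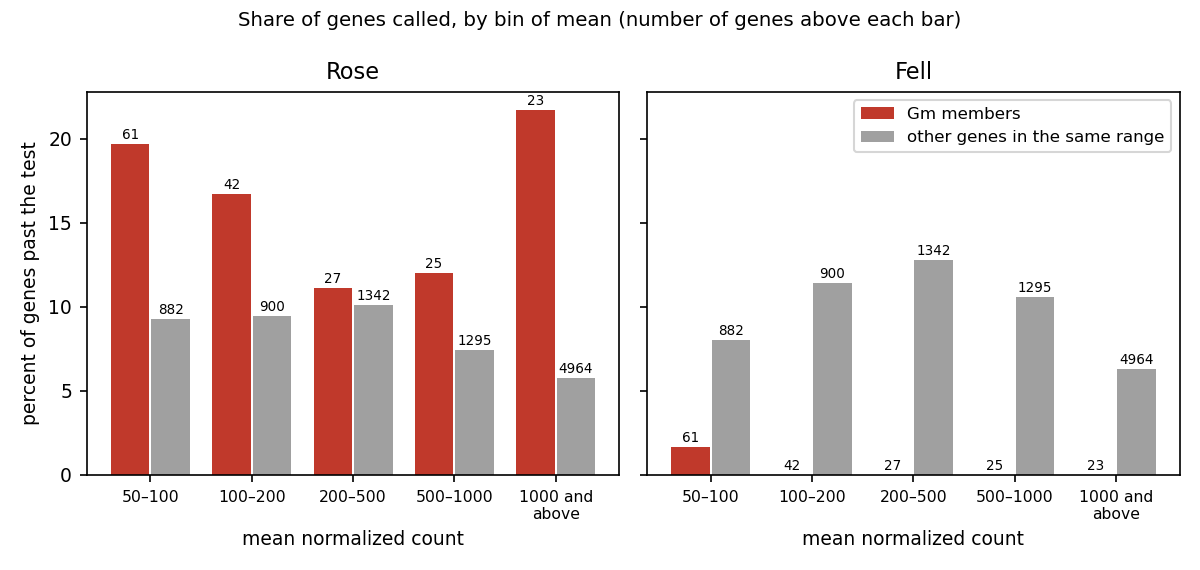
Percent of genes that rose (left panel) and fell (right panel) in bins of mean normalized count, for the Gm members (red) and the other genes of the range (grey), with the number of genes above each bar. The members' bars are higher than the grey bars in all 5 bins of the left panel, and 1 member, at 50 to 100, fell. The member risers at 50 to 100 met the minimum only through Ehmt2 siRNA cells.

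RefSeq's GRCm38.p6 annotation held all 178 members, 176 by symbol and 2 by synonym (Gm13128 as Pramel30 and Gm10560 as Gm16008). Each of the 178 has at least 1 curated RefSeq transcript, and 34 have model transcripts as well, so in this annotation none of them rests on a predicted model alone. The annotation calls 76 of them protein-coding, 74 long noncoding RNAs and 28 transcribed pseudogenes. Protein-coding members gave 18 of the 30 risers, or 23.7% of 76, against 7.29% of the 8976 other protein-coding genes of the range. None of the 76 fell under the authors' DESeq2 p-values, and 3 were lower at an unadjusted p below 0.05. Long noncoding members gave 8 risers and 1 faller, shares of 10.8% and 1.35%, against 9.09% and 2.1% of 286 other long noncoding genes. Pseudogene members gave 4 risers of 28, or 14.3%, against 9.43% of 53 others, and none fell or was lower at an unadjusted p below 0.05. The median log2 fold changes were 0.13, 0.11 and 0.11 in the members of the 3 types, and -0.02, 0.02 and 0.00 in the other genes of those types. The member and other shares were thus far apart for protein-coding genes and within 5 percentage points for the other types. Of the protein-coding risers, Gm773, Gm5622, Gm14569, Gm2022, Gm2016, Gm5662, Gm8300 and Gm21761 had implied control siRNA levels between 4.47 and 32.7. They met the minimum only through Ehmt2 siRNA cells, as did Gm13752, Gm31579, Gm10857 and Gm38509 (long noncoding) and Gm5039 and Gm9057 (pseudogenes). Gm2022, Gm2016, Gm5662 and Gm8300 are also near-identical copies, so the shares by type are a description. The 362 clone-named Rik genes of the range, another class of provisionally named genes, gave 39 risers (10.8%) and 9 fallers (2.49%), with a median of 0.04.

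**Figure D3:**
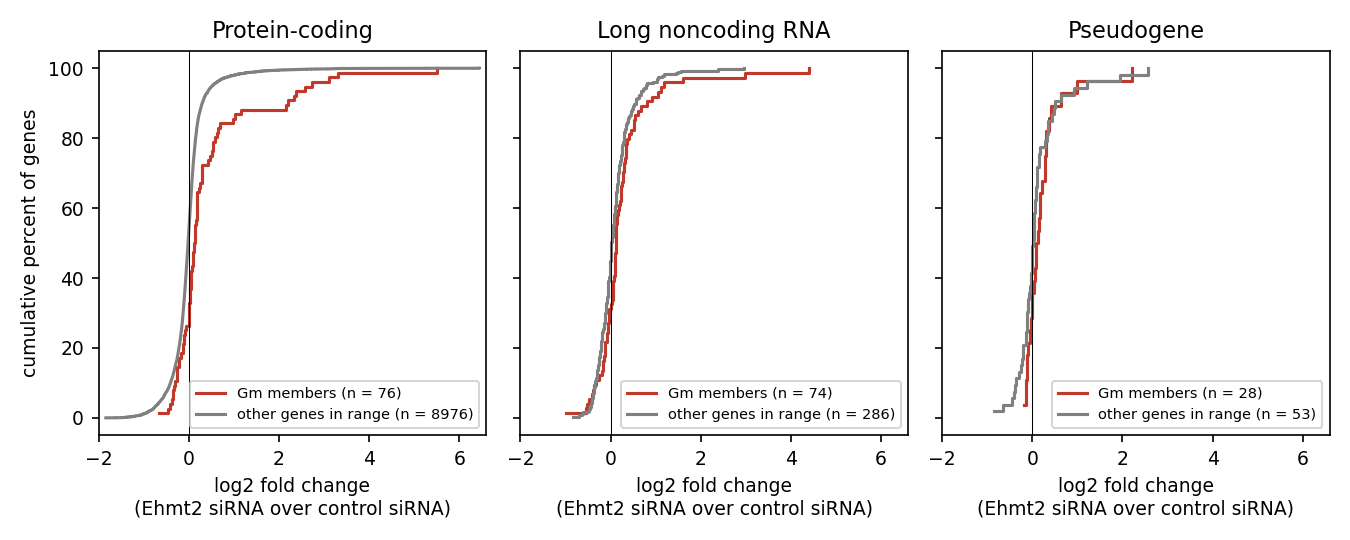
Cumulative percent of genes (y axis) by log2 fold change of Ehmt2 siRNA over control siRNA (x axis) for protein-coding genes, long noncoding RNAs and pseudogenes, with Gm members in red and other genes of the range in grey. The red line lies furthest right of the grey line in the protein-coding panel, where 14.5% of the members and 1.89% of the other genes rose by at least 1. Some of these members met the minimum only through Ehmt2 siRNA cells.

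The X chromosome held 9 members, and 4 of them rose (44.4%), against 74 of 375 other X-linked genes of the range (19.7%). Away from the X chromosome 26 of 169 members rose (15.4%), against 612 of 9002 other genes (6.8%). None of the 9 X-linked members fell under the authors' DESeq2 p-values, and none was lower at an unadjusted p below 0.05. The 4 risers were Gm773, Gm14569, Gm364 and Gm9. Of these, Gm773 and Gm14569, with implied control siRNA levels of 4.47 and 13.0, met the minimum only through Ehmt2 siRNA cells. So did some of the risers on other chromosomes, and the members' shares on and away from the X chromosome are a description.

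Gm773 had the largest log2 fold change of all members in the authors' deposited table, 5.50 with a 95% interval of 4.63 to 6.38 (adjusted p = 6.54e-32). Its mean was 104, and the levels implied by mean and fold were 203 in Ehmt2 siRNA cells and 4.47 in control siRNA cells. Among genes with a mean of at least 50 that rose it ranked 2 by fold change. It is protein-coding and lies on the minus strand of the X chromosome (GRCm38, X:56189827-56212886), where it overlaps the provisional gene Gm14627. The nearest named gene, Zfp449, 133511 bases away, had a log2 fold change of 0.02 and did not pass. Gm364, also protein-coding (X:57400767-57488773), had the smallest p-value of all members and ranked 9 among the 20461 tested genes. Its log2 fold change was 2.73 with an interval of 2.39 to 3.06 (adjusted p = 2.14e-53), from implied levels of 405 in Ehmt2 siRNA cells and 61.2 in control siRNA cells. Its nearest named neighbour, Rbmx, which encodes an RNA-binding protein of the splicing machinery, lay 7721 bases away and rose by 0.35 (adjusted p = 0.00219). Gm14569, listed in RefSeq with the synonym Kiaa1210 (X:36422381-36513829), rose by 3.11 with an interval of 2.34 to 3.89 (adjusted p = 6.63e-13). Its implied levels were 112 in Ehmt2 siRNA cells and 13.0 in control siRNA cells. Lonrf3, the nearest named gene at 55524 bases, fell, with a log2 fold change of -0.98 (adjusted p = 2.31e-04). Gm9, beside the homeobox gene Rhox1, rose by 1.16 with an interval of 0.53 to 1.79 (adjusted p = 0.00563), with implied levels of 228 in Ehmt2 siRNA cells and 102 in control siRNA cells. Rhox1 had a value of 0.71 and did not pass (adjusted p = 0.135). Of the 4 named neighbours of these X-linked risers, 1 rose, 1 fell and 2 did not pass.

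Promoter windows of RefSeq (GRCm38.p6, 250 bases before to 50 after the gene start) were held for 124 members, 20 of the 30 risers among them. The windows of both X-linked genes with the strongest evidence are printed from 250 bases before the start, 5′ to 3′ on the gene's strand. In Gm773 (X:56212882-56213131, minus strand) the capitals mark the 7 CpG dinucleotides of the printed bases, the sites of DNA methylation. In Gm364 (X:57408899-57409148, plus strand), a start that lies inside the gene's annotated span, the capitals mark a CACGTG E-box 185 bases before the start, the core bound by several factors of the basic helix-loop-helix class.
Gm773: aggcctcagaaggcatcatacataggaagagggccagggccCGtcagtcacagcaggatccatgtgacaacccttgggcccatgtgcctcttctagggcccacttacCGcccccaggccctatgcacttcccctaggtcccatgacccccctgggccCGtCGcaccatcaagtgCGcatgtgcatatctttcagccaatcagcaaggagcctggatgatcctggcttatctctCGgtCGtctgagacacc
Gm364: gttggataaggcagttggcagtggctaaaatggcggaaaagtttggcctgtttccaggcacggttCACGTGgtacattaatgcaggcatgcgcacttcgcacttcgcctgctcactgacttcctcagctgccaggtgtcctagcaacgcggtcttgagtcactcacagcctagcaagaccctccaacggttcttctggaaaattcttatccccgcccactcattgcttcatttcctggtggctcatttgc

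CACGTG was found on either strand in the windows of 3 of the 20 risers with a window (15%), which were those of Gm364, Gm5091 and Gm7072. It was also in the window of Gm2694, the single member that fell. Of the 103 members with a window that did not pass, 3 held it (2.91%), as did 8.09% of all 27025 genes with windows. TGCACAC, bound by ZSCAN4, and TTCCCGC, an E2F motif, were in none of the 20 windows of risers. Each was found for 3.88% of the members that did not pass, and for 5.02% and 5.29% of all genes with windows. TTCCCGC was also in the window of Gm2694. The DUX motif, TGATT and AATCA with 1 base between, was in no member's window and was found for 0.0407% of all genes with windows. The median number of CpG dinucleotides in the 300 bases was 5 in risers, 7 in members that did not pass and 8 over all genes. These matches describe the letters of the windows only.

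A family of 5 members on chromosome 12 rose together. They are Gm8300, Gm2016, Gm2022, Gm5662 and Gm5039, they lie between bases 87514316 and 88321762 of GRCm38, and they belong to a list of genes known for transcription in the 2-cell embryo. Their sequence is related to the translation initiation factor gene Eif1ax. Their log2 fold changes lay between 2.16 and 2.58, and their means between 56.9 and 83.8. Gm2022 had implied levels of 108 in Ehmt2 siRNA cells and 18.1 in control siRNA cells (2.58, interval 1.61 to 3.56, adjusted p = 1.1e-05). Gm5662 had 140 in Ehmt2 siRNA cells and 27.6 in control siRNA cells (2.34, interval 1.32 to 3.37, adjusted p = 2.49e-04). Gm5039, which the annotation calls a transcribed pseudogene, had 136 in Ehmt2 siRNA cells and 29.3 in control siRNA cells (2.21, interval 1.33 to 3.10, adjusted p = 4.16e-05). Gm2016 had 93.5 in Ehmt2 siRNA cells and 20.2 in control siRNA cells (2.21, interval 1.25 to 3.17, adjusted p = 2.08e-04). Gm8300 had 109 in Ehmt2 siRNA cells and 24.3 in control siRNA cells (2.16, interval 1.05 to 3.28, adjusted p = 0.00283). The intervals of the 5 overlap widely, so their order cannot be read.

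The 5 genes are near-identical copies. A coding stretch of 435 bases with a start codon and a stop codon at its end, and no stop codon before it, was found in the GENCODE M21 transcripts of all 5, the annotated pseudogene included. Any pair of the 5 shared between 422 and 431 of these bases, at most 99.1%, and 19 of the 435 positions differed among them. The same stretch of Eif1ax shared 84.8% with Gm2022. The first 120 bases are printed to show how alike they are, with the 3 positions that differ among the genes in capitals, and Gm2022 and Gm2016 do not differ there.
Gm2022: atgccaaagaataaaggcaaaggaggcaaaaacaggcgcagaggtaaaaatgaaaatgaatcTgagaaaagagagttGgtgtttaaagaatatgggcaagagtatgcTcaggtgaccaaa
Gm2016: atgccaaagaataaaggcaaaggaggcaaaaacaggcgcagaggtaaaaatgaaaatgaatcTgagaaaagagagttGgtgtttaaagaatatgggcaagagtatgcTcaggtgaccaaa
Gm5662: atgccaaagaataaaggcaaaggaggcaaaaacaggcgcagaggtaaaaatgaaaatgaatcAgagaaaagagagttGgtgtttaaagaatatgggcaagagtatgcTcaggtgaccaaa
Gm5039: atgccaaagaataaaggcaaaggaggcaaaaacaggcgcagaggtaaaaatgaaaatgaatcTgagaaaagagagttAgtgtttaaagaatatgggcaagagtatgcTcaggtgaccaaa
Gm8300: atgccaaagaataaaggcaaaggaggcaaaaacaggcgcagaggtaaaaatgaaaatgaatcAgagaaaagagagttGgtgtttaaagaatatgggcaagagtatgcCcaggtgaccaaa

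How reads that match several of these copies were counted is unknown here, so the split of the counts among the 5 genes is uncertain and they are not 5 separate observations. The nearest named genes at the ends of the group did not pass, Snw1 with 0.02 beside Gm8300 and Adck1 with 0.02 beside Gm5039. Nor did BB287469, the named gene nearest to Gm2016 and Gm2022, with 2.74 at a mean of 2.61 (adjusted p = 0.295). A pair of provisional genes of the same region below the minimum was looked at after their values were seen. Gm7104, with a mean of 6.87, rose by 5.15, and Gm1995, with a mean of 33.4, had a value of 1.63 that did not pass.

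Gm21761 on chromosome 13 (GRCm38, 13:119912035-119913468) is the other listed 2-cell-embryo gene among the members. It rose by 2.38 with an interval of 1.42 to 3.33 (adjusted p = 4.62e-05), from implied levels of 110 in Ehmt2 siRNA cells and 21.2 in control siRNA cells. It shares 98.4% of 1374 bases with Gm20767, a listed gene below the minimum with a mean of 28.0, whose log2 fold change of 1.99 did not pass. Tcstv1, a gene of the 2-cell stage 17250 bases away, rose by 2.78 (adjusted p = 0.00217) at a mean of 16.0. Of the 16 listed 2-cell-embryo Gm genes, 14 were in the table, 4 of them at 0, and of the 10 with a p-value 7 rose, none fell and 3 did not pass (median log2 fold change 2.21). The 6 that are members all rose, but their implied control levels lay between 18.1 and 29.3, so each met the minimum only through Ehmt2 siRNA cells and that count is close to fixed by the rule. Embryonic stem cell cultures hold a few cells in a 2-cell-like state, and of 10 marker genes of that state 9 rose, with a median of 2.62. Dux, with 1.62 at a mean of 2.85, did not pass (adjusted p = 0.625). The 10 hold more than 1 gene each of the Zscan4, Usp17l and Tcstv families, whose reads may be shared, so they are not 10 separate observations. The part of 2-cell-like cells in the rise of the 6 members was not tested. Without the 6, 24 of the remaining 172 members rose (14%), against 7.31% of the other genes of the range. These 24 still include Gm773, Gm13752, Gm5622, Gm14569, Gm31579, Gm10857, Gm38509 and Gm9057, which met the minimum only through Ehmt2 siRNA cells. That share is thus also a description. The promoter of Gm21761 is printed (13:119913469-119913718, minus strand) as the window held for the listed 2-cell-embryo members, with its 3 CpG dinucleotides in capitals.
Gm21761: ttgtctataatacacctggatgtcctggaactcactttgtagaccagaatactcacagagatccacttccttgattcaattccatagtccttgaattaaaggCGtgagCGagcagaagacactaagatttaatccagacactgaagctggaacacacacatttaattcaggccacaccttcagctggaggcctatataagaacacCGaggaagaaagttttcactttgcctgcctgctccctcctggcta

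Gm5622, a protein-coding gene on chromosome 14 (51552790 to 51662953), had the second smallest p-value of the members and ranked 10 among all tested genes. It rose by 3.31 with an interval of 2.88 to 3.73 (adjusted p = 1.33e-49), with implied levels of 324 in Ehmt2 siRNA cells and 32.7 in control siRNA cells. Stretches at least 97% identical over at least 150 bases were found in the transcripts of 20 other genes, and its span overlaps 6 provisional genes, so its counts may be shared with copies. It was the only riser among the 11 members on chromosome 14, where the median log2 fold change of the members was -0.07. The nearest named gene, the vomeronasal receptor gene Vmn2r89, was listed at 0.

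The 8 long noncoding members that rose were led by Gm13752 and Gm31579. Gm13752, on chromosome 2 (80391364 to 80398216), rose by 4.41 with an interval of 3.50 to 5.32 (adjusted p = 1.19e-18), with implied levels of 180 in Ehmt2 siRNA cells and 8.46 in control siRNA cells. Frzb, a secreted WNT antagonist 13754 bases away, had a mean of 5.67 and did not pass (0.68). Gm31579, on chromosome 6, rose by 2.97 with an interval of 2.22 to 3.73 (adjusted p = 1.63e-12), with implied levels of 123 in Ehmt2 siRNA cells and 15.6 in control siRNA cells. Its nearest named gene, Npvf, was listed at 0. Gm5091 on chromosome 17 rose by 1.62 (201 in Ehmt2 siRNA cells and 65.4 in control siRNA cells, adjusted p = 7.34e-15). Gm41259 rose by 1.19, Gm10857 by 1.12 and Gm38509 by 1.06. Gm38509 is Peril, a noncoding gene near Sox2, and Sox2ot, the nearest named gene, had 0.52 and did not pass. Gm20300 rose by 0.54 (adjusted p = 0.0375) and overlaps Hint3 on the same strand (0.32, adjusted p = 0.0609), so reads of one may be counted for the other. Gm32885 rose by 0.30 at a mean of 1859. With the GC trend removed neither of these last calls held (Gm20300 0.42, adjusted p = 0.184, and Gm32885 0.27, adjusted p = 0.0738).

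The promoter of Gm13752 (2:80391114-80391363, plus strand) is printed because it holds a repeat. The 2 marked copies, 29 bases each and in capitals, start 35 bases apart. The printed bases stop at the gene start, which sets the marked length. Whether the repeat runs on past the start was not examined. Directly before the first capitals lies ttctggtcaacctatcta, which is not marked. It matches the end of the first marked copy and the small letters after it, except at the last base.
Gm13752: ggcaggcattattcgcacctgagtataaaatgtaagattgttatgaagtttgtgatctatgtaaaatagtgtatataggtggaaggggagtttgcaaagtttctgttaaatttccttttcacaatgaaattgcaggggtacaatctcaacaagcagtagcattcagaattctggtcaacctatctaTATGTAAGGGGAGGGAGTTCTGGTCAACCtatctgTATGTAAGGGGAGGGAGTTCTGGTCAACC

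**Figure D4:**
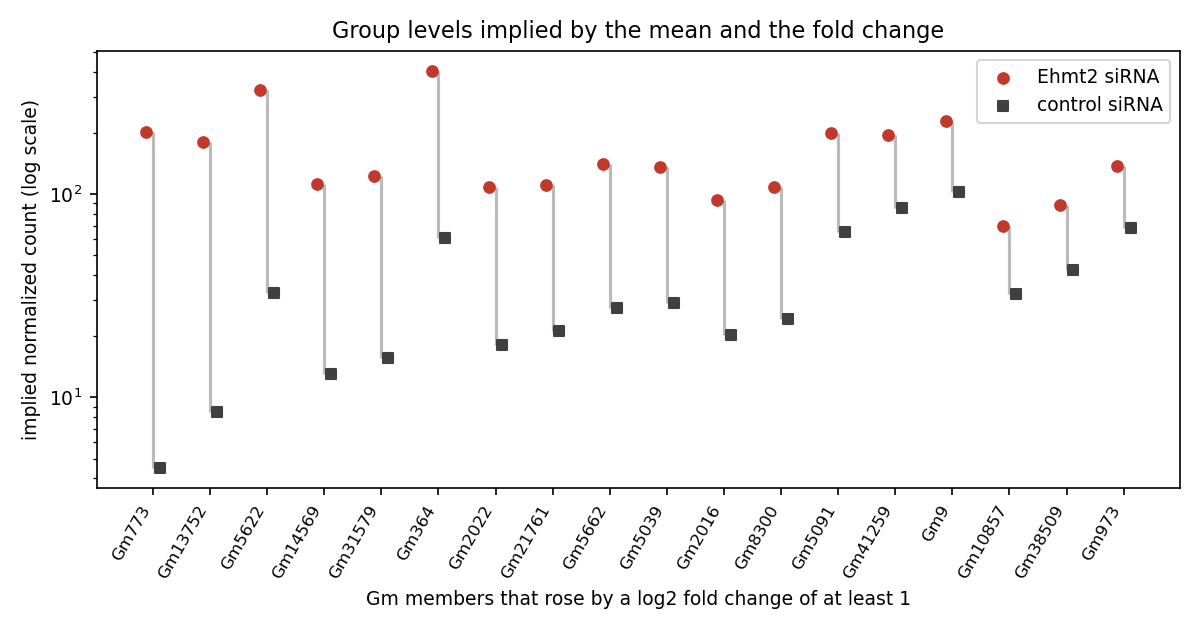
Normalized counts implied by the mean and the fold change (y axis, log scale) in Ehmt2 siRNA cells (circles) and control siRNA cells (squares) for the 18 Gm members that rose by a log2 fold change of at least 1. Gm773 has the widest gap, with 203 in Ehmt2 siRNA cells and 4.47 in control siRNA cells, and no error can be drawn because no library values were given.

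The plot of implied levels shows the 18 strong risers side by side. In Ehmt2 siRNA cells their implied levels lay between 69.7 (Gm10857) and 405 (Gm364), and in control siRNA cells between 4.47 (Gm773) and 102 (Gm9). The fold changes of Gm773 and Gm13752 thus rest on implied control levels below 10 normalized counts. The implied levels take the fold change as the ratio of the group means, which is close to but not the same as the fitted value.

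The weaker risers include members with many zinc finger patterns. Zinc finger genes of the KRAB class encode DNA-binding repressors, many of which bind retrotransposons. At least 3 C2H2 patterns in 1 reading frame were found in 24 of the 157 members with a GENCODE transcript, a class chosen after values were seen. The risers Gm7072, Gm9805 and Gm41259 had no such transcript and were not searched. Of the 24, 5 rose and none fell (0 lower at an unadjusted p below 0.05), 20 were above 0, and the median log2 fold change was 0.17. Of 396 other genes with such patterns 33 rose (8.33%) and 7 fell (1.77%), with a median of 0.06. Gm14325, with 14 patterns, rose by 0.70 with an interval of 0.52 to 0.88 (adjusted p = 1.43e-12), with implied levels of 1442 in Ehmt2 siRNA cells and 887 in control siRNA cells. Its near-identical relative Gm14326 (0.15, adjusted p = 0.211) did not pass. Nor did Gm14410 (0.22, adjusted p = 0.0576), another member of chromosome 2 with zinc finger patterns. The differences from Gm14325 were not tested. Gm14326 shares 97.2% of 1515 bases with Gm14325. The other 4 risers were Gm14393 (0.52, 3 patterns), Gm10324 (0.43, 19 patterns), Gm2381 (0.31, 14 patterns, annotated as a pseudogene) and Gm20939 (0.30, 21 patterns). With the trend of fold change on GC content removed, 3 of the 5 no longer passed, namely Gm10324 (0.31, adjusted p = 0.0746), Gm2381 (0.19, adjusted p = 0.139) and Gm20939 (0.18, adjusted p = 0.227).

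The 5 members with the highest means were Gm4737 (5136), Gm2381 (4467), Gm20939 (3457), Gm38396 (2994) and Gm7072 (2817). Gm2381 had implied levels of 4947 in Ehmt2 siRNA cells and 3987 in control siRNA cells (interval 0.16 to 0.47, adjusted p = 0.00186). Gm20939 had 3819 in Ehmt2 siRNA cells and 3095 in control siRNA cells (interval 0.14 to 0.47, adjusted p = 0.00558). Neither passed with the GC trend removed, as given above. Mettl4, the nearest named gene of Gm20939 at 114687 bases, rose by 0.24. Gm7072 rose by 0.46 with an interval of 0.22 to 0.71 (adjusted p = 0.0034), with 3266 in Ehmt2 siRNA cells and 2368 in control siRNA cells. Its nearest named gene, the zinc finger gene Zfp944, rose by 0.28. Gm4737 and Gm38396 had values of 0.12 and 0.11 and did not pass. The remaining weak risers were Gm9805 (0.64), Gm527 (0.63) and Gm10416 (0.63). Gm973, on chromosome 1, rose by 1.02 (adjusted p = 0.0174).

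Gm2694 was the single member that fell. It is a long noncoding RNA on chromosome 8 (87472812 to 87525554), and its log2 fold change was -0.99 with an interval of -1.61 to -0.36 (adjusted p = 0.0255). Its implied levels were 42.3 in Ehmt2 siRNA cells and 83.8 in control siRNA cells. Cbln1, a secreted synapse organiser of the cerebellum, starts on the opposite strand 220 bases away and had a value of -0.57 that did not pass (adjusted p = 0.306). Among members that did not pass, the lowest value was that of Gm13889 (-0.66, adjusted p = 0.0948) and the highest that of Gm7932 (0.97, adjusted p = 0.0532).

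**Figure D5:**
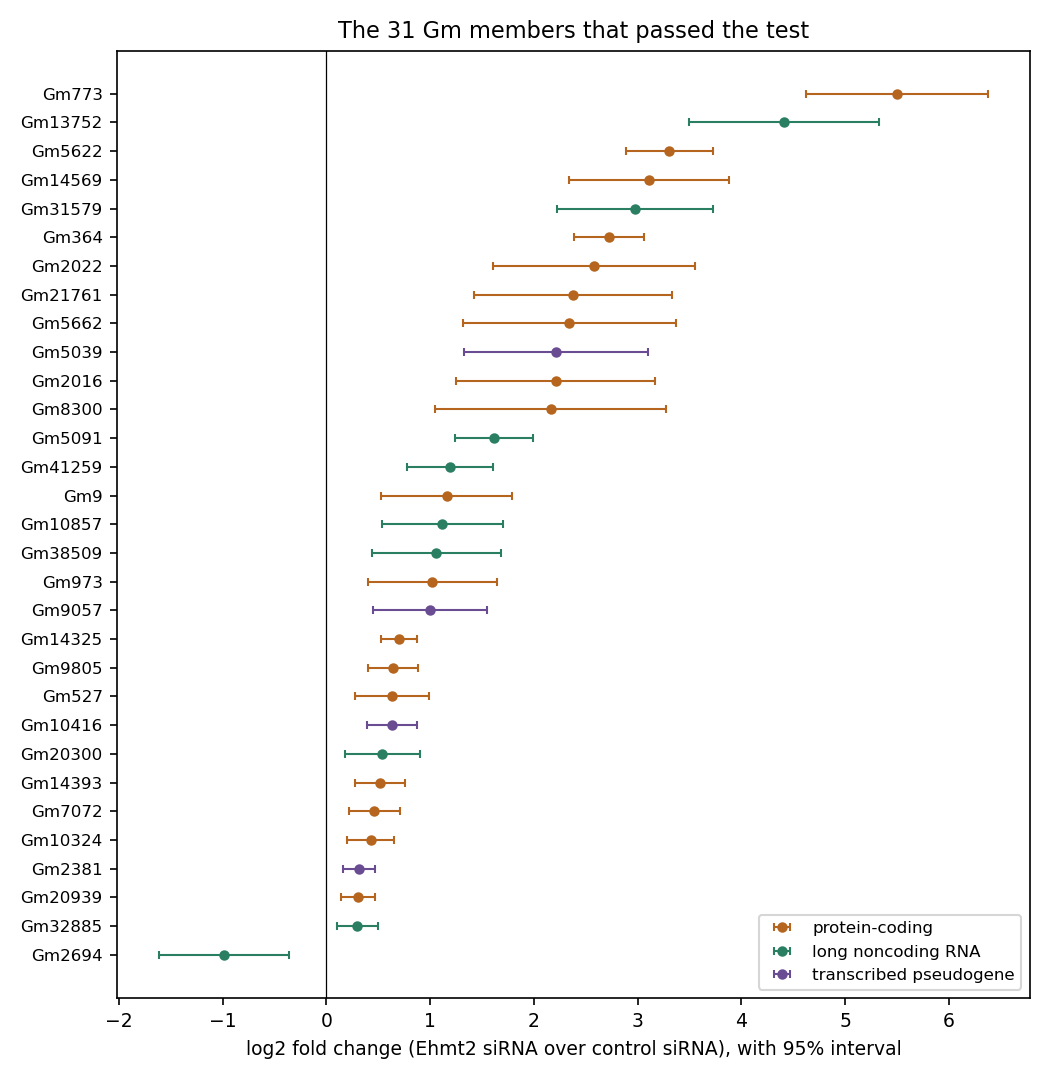
Log2 fold change of Ehmt2 siRNA over control siRNA (x axis) for the 31 Gm members that passed the test, with 95% intervals from the Wald standard error and colours by gene type. Gm773 has the highest value, 5.50, and Gm2694, at -0.99, is the only one left of 0.

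In the plot of the 31 called members the intervals of Gm2381, Gm20939 and Gm32885, all with means of at least 1859, span less than 0.4 on the log2 scale, while those of Gm8300 and Gm5662, with means below 100, span more than 2. The width did not follow the mean alone. The interval of Gm773, at a mean of 104, ran between 4.63 and 6.38, and that of Gm10857, at a mean of 50.9, between 0.53 and 1.70.

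Position beside another gene was described from the same annotation. A named neighbour with a p-value was found for 26 of the 30 risers, and 4 of these neighbours rose (15.4%) and 1 fell. For 141 of the 147 members that did not pass one was found, and 5 of these rose (3.55%) and 7 fell. Over all tested genes 5.45% rose. Some neighbours were counted more than once, such as Adck1 for Gm5662 and Gm5039, BB287469 for Gm2016 and Gm2022, and Zfp937 for Gm14124, Gm14139 and Gm10130. The counts are thus not of separate genes. The median distance to the nearest named gene was 55349 bases for risers and 4080 bases for members that did not pass, and it overlapped the member in 1 case among risers and in 46 cases among members that did not pass. Of the 83 members that overlap any other annotated gene 12 rose, and of the 95 that overlap none 18 rose and 1 fell. Whether reads were assigned by strand is unknown here, so those of overlapping or antisense genes may be counted for the 83. Near-identical stretches in other genes' transcripts were found in 68 members, of which 12 rose (17.6%), and in none of 89 others, of which 15 rose (16.9%) and 1 fell. Risers of both sets include genes that met the minimum only through Ehmt2 siRNA cells. The 12 with such stretches include the 5 near-identical genes of chromosome 12. Both shares are thus a description, from which the part of shared reads cannot be read. No GENCODE transcript was held for 21 members, of which 3 rose.

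Below the minimum 748 Gm-numbered genes had a p-value, of which 23 rose and 1 fell. At means of 10 to 50, 16 of 175 rose (9.14%) and 1 fell, against 163 (7.96%) and 55 of 2049 other genes. Below a mean of 10, 7 of 573 Gm-numbered genes (1.22%) and 43 of 4742 other genes (0.907%) rose.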

How the data were processed

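RNA of 3 Ehmt2 siRNA and 3 control siRNA libraries was compared. Tools named in the submitters' processing notes are Trimmomatic 0.36 and FastQC, the aligner STAR and DESeq2, with mm10 and GRCm38 as builds. For the annotation, the counter, its strand setting and reads that match several genes, nothing was stated in the labels. The authors deposited 1 table, whose values are, per the file headers, DESeq2's mean of size-factor-normalized counts over all libraries (a signal), with the log2 fold change and its p-value beside it. Genes with a mean of 0 (4778) have no p-value. Library depth is unknown.

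Computed here with Python 3.11.15 and pandas 2.3.3 were Benjamini-Hochberg adjusted p-values over the 20461 tested genes (0.05 passes), Wald standard errors implied by fold change and p, 95% intervals, and group levels implied by mean and fold change. The 855 genes carrying a single read gave the same implied error, 4.08, as a check of the Wald reading, and the scripts were tested on simulated data. Near-identical stretches were found with BLAST 2.17.0 in GENCODE M21 transcripts (at least 97% over 150 bases), and positions, types and promoters come from RefSeq GRCm38.p6. Zinc finger patterns were 2 cysteines and 2 histidines at the usual spacing, read in any sense frame.

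Named by rule were Ehmt2, the 10 largest rises and falls and 3 smallest p-values per direction among passing members, the 5 highest means, the 3 genes on either side of the minimum, the listed 2-cell-embryo genes, and the nearest or overlapping named gene of each. The other members that rose were named after their values were seen. The members, lists and tests were chosen with earlier results of these data known. Alternatives changed the adjustment, thresholds, minimum mean, GC trend, centring and overlapping members.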

Additional observations from a re-analysis of the deposited data

How the results depend on the processing

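No paired analysis was possible because the deposited table holds no value per library, and no library could be left out for the same reason. Alternatives were run for the counts that rose and fell, the members' median, the difference in share and the single called members, and none of these changed sign. Gm41259, Gm9805 and Gm7072 had no GC value, and the counts by bin, chromosome, zinc finger, neighbour, promoter and marker list had no alternative. The members' median lay between 0.109 and 0.127. With the sets of members as they stand, the count that rose was 33 with p-values adjusted over genes of mean 50 or more, and also over the 16543 genes that the table sorts by p-value. It was 41 of 275 at a minimum mean of 20, 26 at an adjusted p below 0.01 and 24 of 157 after removal of a GC trend (members had a median GC content of 47.6%, other genes 50.3%). It was 18 when the log2 fold change had to reach 1, 18 of 117 at a minimum mean of 100 and 18 of 95 without overlapping members. Without members in which near-identical stretches were found it was 18 of 110, an alternative added after the data were seen. The 110 include the 21 members with no GENCODE transcript, which were not searched for such stretches. The count that fell was 0 at an adjusted p below 0.01, 0 when it had to reach 1 in size, 0 at a minimum mean of 100 and 2 of 275 at a minimum mean of 20. At an adjusted p below 0.01 the calls of Gm20300, Gm2694, Gm32885, Gm38509 and Gm973 were lost, and after GC removal those of Gm10324, Gm20300, Gm20939, Gm2381 and Gm32885. The members' share of risers was 9.54 percentage points above that of the other genes as reported, 8.11 with the other genes weighted to the members' bins of mean, and 2.62 for long noncoding RNAs and pseudogenes only (11.8% of 102, against 9.14%). The cause was not tested. Low means, single summary values and shared reads limit what can be read from the members.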
